A study of Sus scrofa with 16 samples.

Results

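The transcripts described here are CXCL9, CXCL10 and CXCL11, the 3 interferon-inducible chemokines that bind the receptor CXCR3, together with CXCR3 itself and IDO1. They were chosen by gene symbol and are 5 of the 22629 genes listed in the expression tables. Myocardial RNA was sequenced from 4 ischemia/reperfusion (IR) pigs and 4 sham-operated pigs, all White Yorkshire-Landrace farm pigs aged 1 month at surgery. In IR pigs the left anterior descending coronary artery (LAD) was occluded for 1 h and then released, and sham pigs had the same operation without the occlusion. Hearts were taken 4 weeks later, and each pig gave 1 left ventricular sample from the scar zone, directly distal to the suture in both surgeries, and 1 from the border zone, so the groups are IR scar, sham scar, IR border and sham border, each with 4 pigs. IR pigs 2 and 14 and sham pigs 4 and 5 were female, and IR pigs 9 and 11 and sham pigs 12 and 13 were male. The scar zone of an IR pig held viable as well as injured myocardium, and in a sham pig it was the matching position without occlusion.

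CXCL9, CXCL10 and CXCL11 are small secreted proteins made by macrophages, endothelial cells and other cells under interferon gamma, and CXCL10 also under type I interferons. They attract activated T cells and NK cells that carry CXCR3, a G protein-coupled receptor, and those lymphocytes are themselves a source of interferon gamma. IDO1 is an intracellular enzyme that opens the breakdown of tryptophan into kynurenine, is induced by the same cytokine and is known for restraining T cells.

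All 5 genes were found in both tables. The pig gene table of the Sscrofa11.1 assembly places CXCL10 directly beside CXCL11, with ART3 between CXCL10 and CXCL9, and IDO1 beside its paralog IDO2. Levels are given as TPM, a unit that is scaled for transcript length and allows genes to be compared with each other. Tests between surgeries used estimated counts, expressed for single samples as log2 CPM (counts relative to the library total after TMM scaling, with a prior count of 2).

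Totals were 15427663 to 49045206 estimated counts per sample, and 3 counts, the smallest number treated as detected, corresponded to 0.0696 to 0.204 CPM, a floor that covers counting error only. The largest totals were those of the male IR pigs 9 and 11, at 33521418 to 49045206, and those of the other pigs were 15427663 to 27088652. Among IR pigs, depth and sex therefore cannot be told apart. Cardiomyocyte markers were abundant in all 16 samples, with 9 of 11 markers listed and a summed level of 72939 to 97339 TPM. Sham pig 5 stood apart by low leucocyte transcripts. PTPRC, which encodes the leucocyte surface protein CD45, was at 3.13 and 4.06 TPM in its scar and border zone, against 6.65 to 23.4 TPM in the other 14 samples. The scar library of IR pig 14, labelled female, held 4.48 CPM of the Y-linked gene DDX3Y, whereas the remaining female libraries held 0.389 to 1.23 CPM and those of males 68.4 to 103 CPM. KDM5D, another Y-linked gene, was at 0.408 CPM (6 counts) in that library, at 0 in the remaining female libraries and at 4.27 to 10.1 CPM in those of males. Whether RNA of another animal was present in the library was not tested, and its CXCR3 was the highest of all 16 samples.

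CXCL9 and CXCL10 were the abundant members, and CXCL11, CXCR3 and IDO1 were low. On the TPM scale CXCL9 and CXCL10 each exceeded CXCL11, CXCR3 and IDO1 in 16 of 16 samples, and CXCL10 exceeded CXCL9 in 8 of 16, so the order of those 2 ligands was not fixed. CXCR3 exceeded CXCL11 in 12 of 16 samples and IDO1 in 15 of 16. CXCL11 rested on 0 to 56 estimated counts per sample and IDO1 on 1.09 to 167, so single values of both carry a large counting error. The corresponding ranges were 16 to 2130 counts for CXCL9, 259 to 14989 for CXCL10 and 4.01 to 217 for CXCR3.

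**Figure D1:**
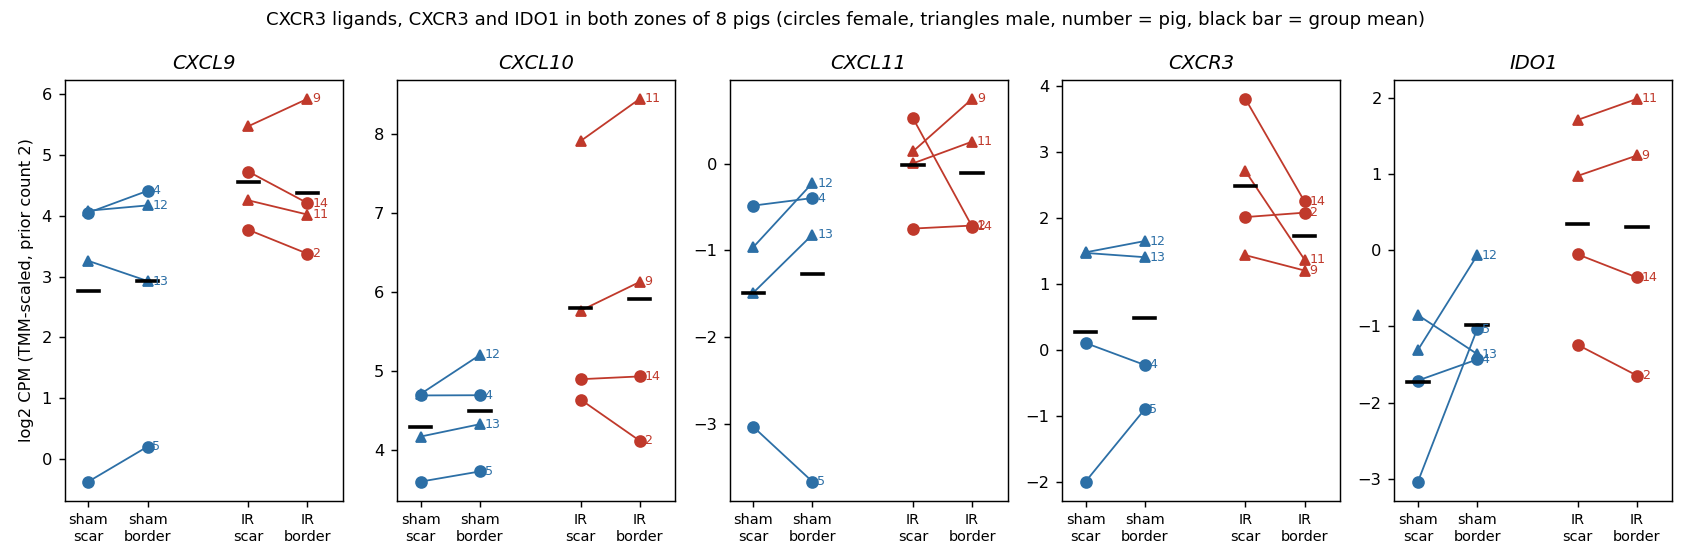
Level of each gene in every sample, as log2 CPM (TMM-scaled, prior count 2) on an axis of its own for each panel. Lines join the 2 zones of a pig, circles are female, triangles male, numbers are pigs, and black bars are the means of 4 pigs. IR pigs 9 and 11 are high for CXCL10 and IDO1 in both zones, and sham pig 5 is the lowest sham pig for CXCL9, CXCL10, CXCL11 and CXCR3.

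In the scar zone all 5 members had a higher mean in IR than in sham pigs and a log2 fold change above 0, as did 53.9% of all genes tested. For each of the 5 members 3 of 4 IR pigs lay above every sham pig on the CPM scale, which held for at least 3 IR pigs in 11.7% of genes. For 0 of 5 members did all 4 IR pigs do so, against 2.03% of genes. No gene of 14023 tested passed the adjusted threshold, an adjusted p of at most 0.05 with a fold change of at least 2 in the edgeR quasi-likelihood test, so 0 of 5 members passed (background 0%). At the unadjusted p with the same fold change, 4 of 5 members passed as higher in IR pigs, CXCL10, CXCL11, CXCR3 and IDO1, against 2.74% of all genes (384 of 14023). DESeq2 called 52 genes at its adjusted p, 0 of them members. The members' median log2 fold change was 2.01, and the median over all genes tested was 0.03. CXCL9, CXCL10, CXCL11 and CXCR3 are among the genes the study names from these same libraries, so their direction here is no independent evidence. In whole tissue, more cells of a type and more RNA per cell cannot be told apart. The p-values measure the spread between separate pigs.

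CXCL9 was at 6.77, 32.8, 10.7 and 12.4 TPM in the scar zone of IR pigs 2, 9, 11 and 14. In sham pigs 4, 5, 12 and 13 it was at 8.68, 0.317, 8.49 and 4.45 TPM. Pig 9 was the highest and pig 5 the lowest by a wide margin, and IR pig 2 lay inside the sham range. The mean was 15.6 ± 11.7 TPM in IR and 5.49 ± 3.96 TPM in sham pigs (SD, n = 4 each). The log2 fold change of IR against sham was 1.25 ± 0.70 (SE), with an edgeR p of 0.105 and an adjusted p of 0.497. It was 0.84 without pig 9 and 0.86 without pig 5.

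CXCL10, the most abundant member in 8 of 16 samples, was at 7.19, 23.2, 77.9 and 8.05 TPM in the scar zone of IR pigs 2, 9, 11 and 14. The sham values were 7.87, 3.22, 7.64 and 4.88 TPM in pigs 4, 5, 12 and 13. Only pigs 9 and 11 were clearly above the sham range, pig 14 exceeded the highest sham pig by little, and pig 2 fell among the sham pigs. Means were 29.1 ± 33.4 TPM in IR and 5.90 ± 2.25 TPM in sham pigs (SD, n = 4 each). IR against sham gave a log2 fold change of 2.09 ± 0.69 (SE), with an edgeR p of 0.0132 and an adjusted p of 0.438. It fell to 0.83 without pig 11, with an edgeR p of 0.0310, still past the unadjusted p but below a fold change of 2.

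CXCL11, the least abundant ligand, was at 0.599, 1.77, 1.21 and 1.49 TPM in IR pigs 2, 9, 11 and 14 and at 0.771, 0.0458, 0.504 and 0.304 TPM in sham pigs 4, 5, 12 and 13 in the scar zone. In pig 5 that value was 1 estimated count. IR pig 2 was below sham pig 4, and the other IR pigs were above all sham pigs. This was a log2 fold change of 1.45 ± 0.58 (SE), with an edgeR p of 0.0320 and an adjusted p of 0.438. It passed the unadjusted p in 4 of 8 fits that left out 1 pig, with log2 fold changes from 1.09 (without pig 5) to 1.87 (without pig 4). Leaving out pig 9, 11, 13 or 14 ended the call, with an edgeR p of 0.0659, 0.0507, 0.0769 and 0.0718 in that order.

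CXCR3, the receptor, was at 1.86, 1.83, 3.40 and 6.08 TPM in the scar zone of IR pigs 2, 9, 11 and 14 and at 0.502, 0.0747, 1.28 and 1.19 TPM in sham pigs 4, 5, 12 and 13. The IR and sham values did not overlap in TPM, and the share of all genes for which this held was not determined. After TMM scaling these values overlapped, since IR pig 9 had 2.63 CPM and sham pigs 12 and 13 had 2.71 and 2.69 CPM. Its log2 fold change was 2.01 ± 0.73 (SE), with an edgeR p of 0.0216 and an adjusted p of 0.438. Leaving out pig 14 gave 1.39 with an edgeR p of 0.0780, and leaving out sham pig 4 gave 1.83 with an edgeR p of 0.0566, so leaving out either of these pigs ended the call.

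IDO1 was at 0.143, 1.17, 1.49 and 0.346 TPM in IR pigs 2, 9, 11 and 14 in the scar zone, and at 0.103, 0.0181, 0.137 and 0.187 TPM in sham pigs 4, 5, 12 and 13. Pigs 9 and 11 were well above the rest, pig 14 lay between, and pig 2 was within the sham range. Its log2 fold change of 2.56 ± 0.73 (SE) was the largest of the 5 in that zone, with an edgeR p of 0.00604 and an adjusted p of 0.438. The unadjusted call held in 8 of 8 fits that left out 1 pig, with log2 fold changes from 1.98 (without pig 11) to 2.97 (without pig 13). With edgeR's likelihood-ratio test and 1 factor of unwanted variation, an alternative chosen after the data were seen, its adjusted p was 0.000994 and 146 genes were called. That factor was taken from the 5000 genes with the highest p for the same contrast in these libraries, so this pass is no independent evidence. The quasi-likelihood test with the same factor called 0 genes at the adjusted p.

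Over all 5 members, 4 calls at the unadjusted p became 2 without pig 11 (IDO1 and CXCR3) and 2 without pig 14 (CXCL10 and IDO1). Without pig 5, 4 members were past that threshold. The share of all genes higher at that threshold also moved, to 214 of 14126 genes without pig 11, 4.80% without pig 14 and 1.87% without pig 5.

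**Figure D2:**
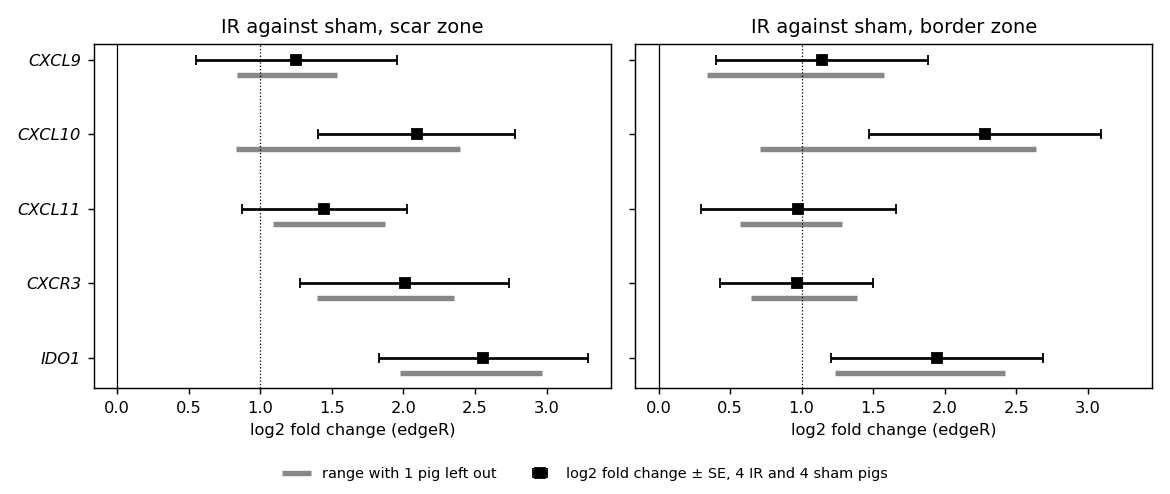
Log2 fold change of IR against sham pigs from edgeR for each gene, with its SE (black squares and bars, 4 IR and 4 sham pigs), in the scar zone (left) and border zone (right). Grey bars span the fits that left out 1 pig, the solid line marks no change and the dotted line a fold change of 2. All fitted values are above 0, and the grey bar of CXCL10 reaches down to 0.83 (scar) and 0.71 (border), both without pig 11.

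In border zone tissue the direction was the same and fewer members passed the unadjusted threshold. All 5 members had a log2 fold change above 0, as did 50% of all genes tested. For 0 of 5 members did 3 or 4 IR pigs lie above every sham pig on the CPM scale, against 7.93% of genes for at least 3 and 0.838% for all 4. Again 0 of 13728 genes passed the adjusted threshold in edgeR (background 0%), and DESeq2 called 2 genes, 0 of them members. At the unadjusted p with a fold change of at least 2, 2 of 5 members were higher, CXCL10 and IDO1, against 0.517% of all genes (71 of 13728). The members' median log2 fold change was 1.14, and that of all genes was 0.00.

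CXCL9 in the border zone was at 5.16, 32.8, 7.29 and 9.28 TPM in IR pigs 2, 9, 11 and 14 and at 9.34, 0.517, 9.38 and 3.75 TPM in sham pigs 4, 5, 12 and 13. Only pig 9 was above the sham range. The log2 fold change was 1.14 ± 0.74 (SE), with an edgeR p of 0.153 and an adjusted p of 0.988, and it fell to 0.34 without pig 9.

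CXCL10 was at 5.02, 21.8, 90.7 and 8.87 TPM in the border zone of IR pigs 2, 9, 11 and 14, and at 6.64, 3.71, 11.1 and 5.78 TPM in sham pigs 4, 5, 12 and 13. Pigs 9 and 11 were above all sham pigs, and pigs 2 and 14 were not. IR against sham gave a log2 fold change of 2.28 ± 0.81 (SE), with an edgeR p of 0.0181 and an adjusted p of 0.988. Without pig 11 it was 0.71 with an edgeR p of 0.148, which ended the call.

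CXCL11 had border zone levels of 0.619, 2.03, 1.17 and 0.618 TPM in IR pigs 2, 9, 11 and 14. Its sham levels were 0.686, 0, 0.949 and 0.570 TPM in pigs 4, 5, 12 and 13, and the 0 of pig 5 allowed up to 0.153 CPM, the level of 3 counts. The 2 male IR pigs were above the sham range and the 2 female IR pigs inside it. Its log2 fold change of 0.98 ± 0.68 (SE) had an edgeR p of 0.181 and an adjusted p of 0.988, and was 0.57 without pig 5.

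CXCR3 was at 1.96, 1.13, 1.06 and 2.20 TPM in the border zone of IR pigs 2, 9, 11 and 14, and at 0.326, 0.211, 1.51 and 1.20 TPM in sham pigs 4, 5, 12 and 13. Here pigs 2 and 14 were above the sham range, and pigs 9 and 11, the pigs with the highest sum of the 3 ligands, lay below sham pigs 12 and 13. Its log2 fold change was 0.97 ± 0.53 (SE), with an edgeR p of 0.10 and an adjusted p of 0.988. It was 0.65 without pig 5, and 1.39 without pig 12, where an edgeR p of 0.0333 brought it past the unadjusted threshold.

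IDO1 in the same zone was at 0.101, 1.03, 1.46 and 0.296 TPM in IR pigs 2, 9, 11 and 14 and at 0.108, 0.165, 0.385 and 0.129 TPM in sham pigs 4, 5, 12 and 13. Pigs 9 and 11 again stood above the sham range, and pig 2 was below every sham pig. IR against sham gave a log2 fold change of 1.95 ± 0.74 (SE), with an edgeR p of 0.0243 and an adjusted p of 0.988. The unadjusted call held in 3 of 8 fits that left out 1 pig. Leaving out pig 4, 5, 9, 11 or 13 ended it, with an edgeR p of 0.0664, 0.0551, 0.0508, 0.111 and 0.0636 in that order, and the log2 fold change without pig 11 was 1.23.

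The same contrasts were repeated for each member alone with a two-sided exact permutation test of mean log2 CPM, for which 4 pigs against 4 cannot give a p below 0.0286. Scar zone differences between IR and sham means were 1.80 for CXCL9, 1.51 for CXCL10, 1.47 for CXCL11, 2.22 for CXCR3 and 2.07 for IDO1 on the log2 CPM scale. None of the 10 tests reached 0.05. The exact permutation p was 0.0571 for CXCL11 and IDO1, 0.0857 for CXCL10 and CXCR3 and 0.114 for CXCL9 in the scar zone. Border zone values of the exact permutation p were 0.171 to 0.257. With Benjamini-Hochberg adjustment over the 10 tests, the exact permutation p was 0.214 to 0.229 in the scar zone and 0.257 for each member in the border zone. On log2(TPM + 0.1), where the values of CXCR3 in the scar zone did not overlap, its exact permutation p was 0.0286. Without pig 5 the scar zone differences were 0.76 for CXCL9, 1.28 for CXCL10, 0.96 for CXCL11, 1.47 for CXCR3 and 1.63 for IDO1, so that of CXCL9 was the most reduced. The smallest exact permutation p that 4 against 3 pigs allow is also 0.0286, and it was 0.0857 to 0.20 without pig 5 and 0.0571 to 0.286 without pig 14, which left scar zone differences of 1.29 (CXCL11) to 2.20 (IDO1). In the scar zone CXCL10 (1.89) and IDO1 (2.60) reached an exact permutation p of 0.0286 without pig 2, as did CXCL11 (1.81) without pig 4.

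Sex was not tested within the groups of 2 females and 2 males, and the values are a description. Male IR pigs also had the largest count totals, so sex and depth cannot be told apart among IR pigs. Mean log2 CPM of CXCL10 was higher in male than in female IR pigs, by 2.07 in scar and 2.76 in border samples, while the corresponding difference in sham pigs was 0.29 and 0.55. For IDO1 the male minus female difference was 1.99 and 2.61 in IR pigs and 1.29 and 0.52 in sham pigs, scar and border zone in that order. CXCR3 went the other way in IR pigs, with a male minus female difference of -0.83 and -0.88, and was 2.41 and 2.09 higher in males among sham pigs. Without pig 14, which left 1 female IR pig, that difference of CXCR3 was 0.06 in scar and -0.79 in border samples. Without pig 5, which left 1 female sham pig, the sham difference was 1.37 and 1.75 for CXCR3, -0.25 and 0.07 for CXCL10 and 0.63 and 0.72 for IDO1. With sex as a covariate, the same number of members passed the unadjusted threshold as without it, 4 for scar and 2 for border samples.

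The test of whether the IR effect differed between zones called 0 of 14278 genes in edgeR at the adjusted threshold (background 0%; 0 in DESeq2), and 0 of 5 members also at the unadjusted p, which 1.32% of genes passed as higher in the scar zone. CXCR3 had the largest interaction of the members, a log2 fold change of 1.05 ± 0.98 (SE) with an edgeR p of 0.297, which fell to 0.61 without pig 14. With the pig as a block it was 0.92 ± 0.45 (SE), with an edgeR p of 0.0659. That blocked value passed the unadjusted threshold without pig 2 (1.18, edgeR p of 0.0174) or pig 9 (edgeR p of 0.0368), and was 0.64 without pig 14. The blocked value of IDO1 passed it without pig 13 (1.35, edgeR p of 0.0412). Within pigs, scar minus border zone log2 CPM of CXCR3 was -0.07, 0.23, 1.34 and 1.55 in IR pigs 2, 9, 11 and 14 and 0.33, -1.09, -0.17 and 0.06 in sham pigs 4, 5, 12 and 13. Pigs 11 and 14 gave the difference, and pigs 2 and 9 lay in the sham range. The IR minus sham difference of these values was 0.98, with an exact permutation p of 0.143 (0.476 after adjustment over 5 members). For IDO1 that difference was 0.79 (exact permutation p = 0.286), and for CXCL9, CXCL10 and CXCL11 it was 0.35, 0.09 and 0.31. Without pig 14 the CXCR3 value was 0.72 and that of CXCL11 was -0.08. Without pig 5 they were 0.69 and 0.59, and that of IDO1 was 0.38. Without sham pig 13 the IDO1 value was 1.21 (exact permutation p = 0.0286).

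Scar and border zone were also compared within each surgery. Among IR pigs 0 of 14170 genes and 0 of 5 members passed the adjusted threshold in edgeR (background 0%; DESeq2 called 4 genes, 0 of them members), and 0 of 5 members passed the unadjusted one (background 1.69% higher in the scar zone). The log2 fold change of CXCR3 was 1.00 ± 0.50 (SE), with an edgeR p of 0.0781, and 0.55 without pig 14. With the pig as a block it was 0.81 ± 0.31 (SE), with an edgeR p of 0.0398 and an adjusted p of 0.431, past the unadjusted p but below a fold change of 2. This rested on pigs 11 and 14, since the blocked value was 0.60 without pig 11 (edgeR p of 0.152) and 0.52 without pig 14 (edgeR p of 0.178), while without pig 2 it passed the unadjusted threshold (edgeR p of 0.0130). In sham pigs the 4 members tested had log2 fold changes of -0.49 (CXCL11) to -0.06 (CXCR3), and 0 of them passed either threshold (background 0% adjusted, with 1 gene called by DESeq2, and 0.029% higher at the unadjusted p). IDO1 was left out of that comparison by the filter on low counts.

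The mixture of the 3 ligands was described in TPM. Their sum was 14.6, 57.8, 89.8 and 21.9 TPM in the scar zone of IR pigs 2, 9, 11 and 14 and 17.3, 3.58, 16.6 and 9.63 TPM in sham pigs 4, 5, 12 and 13. The border zone sums were 10.8, 56.6, 99.2 and 18.8 TPM in the same IR pigs and 16.7, 4.22, 21.5 and 10.1 TPM in the same sham pigs. CXCL10 made up 86.8% and 91.5% of the sum in pig 11, scar and border zone, and 89.9% and 87.8% in sham pig 5. In the other 12 samples it made up 36.7% to 57.2%, so the highest and the lowest ligand sum had a like composition. CXCL11 never exceeded 6.78%.

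**Figure D3:**
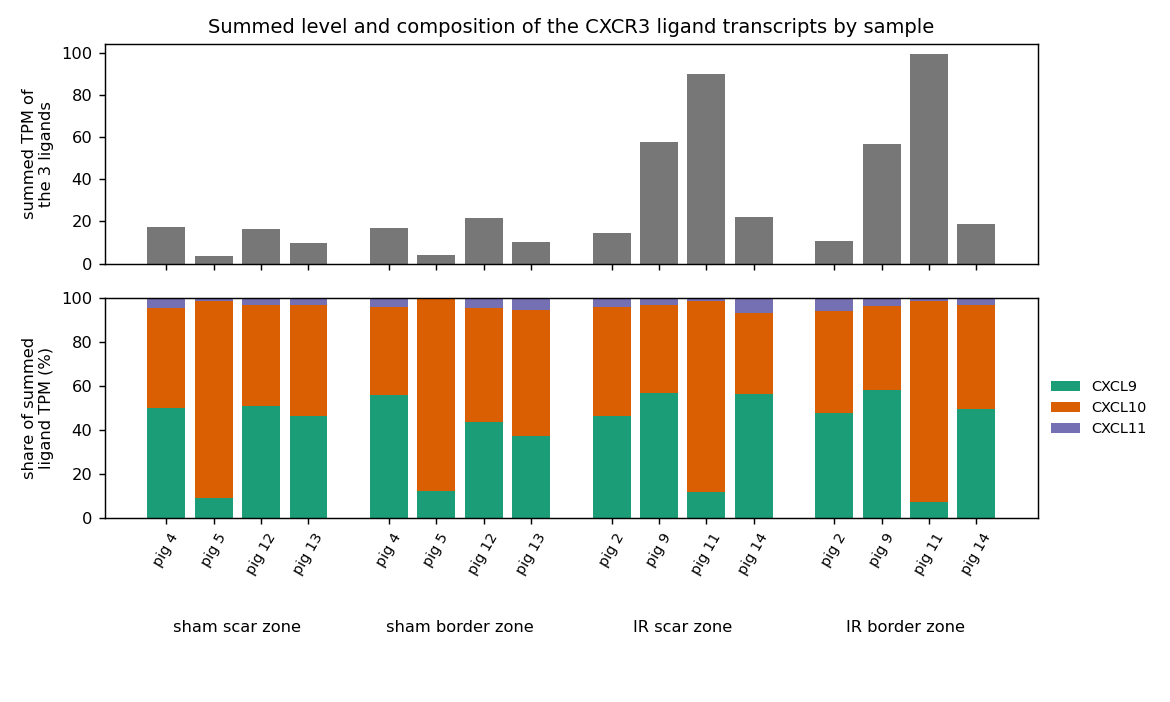
Summed TPM of CXCL9, CXCL10 and CXCL11 in each sample (top) and the share of each ligand in that sum in percent (bottom), by group and pig. Pig 11 has the highest sums, 89.8 and 99.2 TPM, and pig 5 the lowest, 3.58 and 4.22 TPM, and CXCL10 is the main ligand in both pigs.

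Ligand and receptor transcripts did not keep a fixed ratio. The ligand sum divided by CXCR3 TPM ranged from 3.603 in the scar zone of pig 14 to 93.6 in the border zone of pig 11. It was 3.603 to 31.6 in IR scar, 8.12 to 47.9 in sham scar, 5.51 to 50.1 in the other IR border samples and 8.41 to 51.2 in sham border samples.

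The 10 pairs of members were then related to each other over the 8 pigs of each zone, on log2 CPM, with exact permutation tests over pairings and adjustment over the 20 relations. The same 2 pairs passed in both zones. CXCL9 and CXCL11 had a Pearson r of 0.937 in the scar zone (exact permutation p = 0.00102, adjusted 0.00876), with a Spearman rho of 0.905 (p = 0.00456, adjusted 0.0456), and of 0.951 in the border zone (p = 0.00265, adjusted 0.0133), with a rho of 0.714 (p = 0.0576, adjusted 0.144). Without the 2 pigs farthest from the median CXCL9, pigs 5 and 9, r was 0.930 for scar and 0.503 for border samples, so the border zone relation rested on those pigs.

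CXCL10 and IDO1 were the other pair. Their r was 0.882 in the scar zone (exact permutation p = 0.00131, adjusted 0.00876), with a rho of 0.786 (p = 0.0279, adjusted 0.0931), and 0.921 in the border zone (p = 0.00124, adjusted 0.00876), with a rho of 0.833 (p = 0.0154, adjusted 0.0615). Without the 2 pigs farthest from the median of CXCL10, r was 0.776 in the scar zone (without pigs 5 and 11) and 0.685 in the border zone (without pigs 9 and 11). As a description over all 16 samples, which share pigs, r was 0.938 for CXCL9 with CXCL11 and 0.892 for CXCL10 with IDO1, and with the 4 group means subtracted it was 0.916 and 0.854. Without pig 5 the 14-sample r was 0.785 for the first pair and 0.902 for the second.

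The remaining relations did not pass for r. CXCL9 and CXCL10, which lie close together in the pig genome, had an r of 0.541 in the scar zone (exact permutation p = 0.150, adjusted 0.231) and 0.507 in the border zone (exact permutation p = 0.199, adjusted 0.234). Their scar zone ranks agreed more closely, with a rho of 0.929 (exact permutation p = 0.00223, adjusted 0.0446), and pig 11 had the highest CXCL10 but not the highest CXCL9. Without pig 11, the scar zone r of this pair was 0.903 (adjusted exact permutation p = 0.0331), and 5 instead of 2 relations passed in that zone. Over the 7 pigs left without sham pig 5, 0 relations passed in scar and 1 in border samples. Without pig 9 these numbers were 1 and 0, and without pig 14 they were 2 and 2.

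For CXCR3 the scar zone r was 0.836 with CXCL11 (exact permutation p = 0.0142, adjusted 0.0569), 0.782 with CXCL9 (exact permutation p = 0.0398, adjusted 0.0885), 0.737 with IDO1 (exact permutation p = 0.0352, adjusted 0.0881) and 0.531 with CXCL10 (exact permutation p = 0.189, adjusted 0.234). Without pigs 5 and 14 the first of these was 0.182. Border zone r of CXCR3 with the other members was 0.211 to 0.601, with a rho of -0.07 to 0.12, and without pig 5 r was -0.27 with CXCL9, -0.06 with CXCL10, -0.24 with CXCL11 and 0.08 with IDO1. In the scar zone without pig 5 they were 0.232 with CXCL9, 0.326 with CXCL10, 0.543 with CXCL11 and 0.511 with IDO1. Over all 16 samples with group means subtracted, r of CXCR3 was 0.06 with CXCL10, 0.20 with IDO1, 0.53 with CXCL9 and 0.53 with CXCL11, as a description. Without pig 5 these were -0.15, 0.00, -0.07 and 0.04 in that order.

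**Figure D4:**
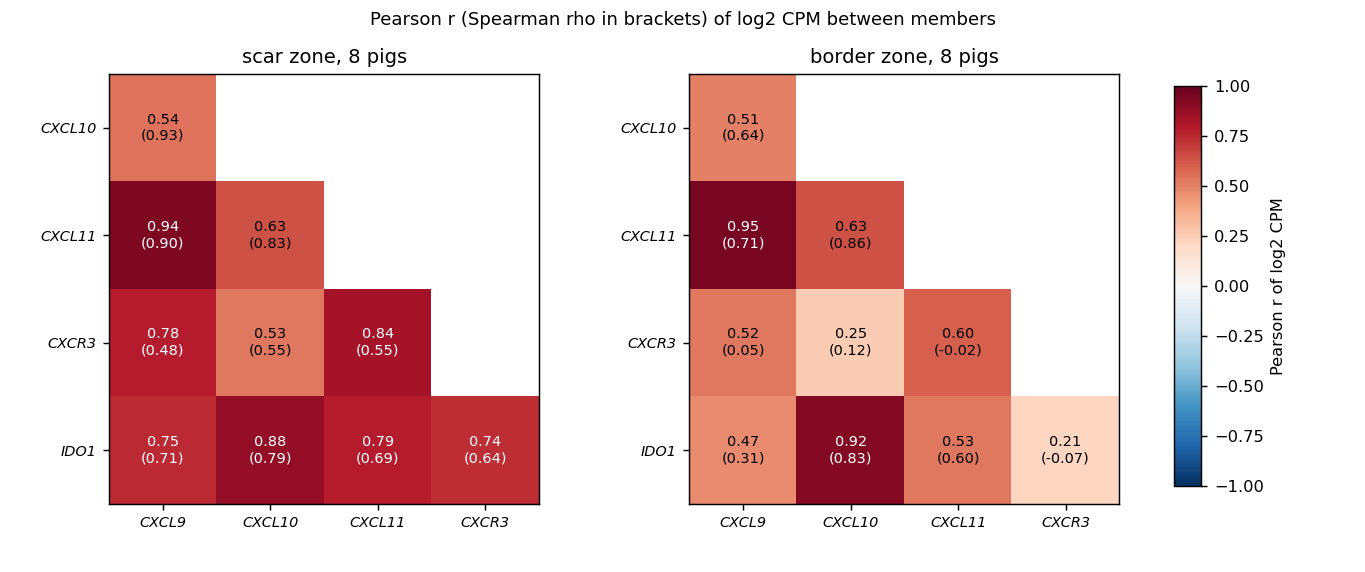
Pearson r (color and upper number) and Spearman rho (in brackets) of log2 CPM for each pair of members over 8 pigs, in the scar zone (left) and border zone (right). The darkest cells of both zones are CXCL9 with CXCL11 and CXCL10 with IDO1, and in the border zone rho of CXCR3 lies between -0.07 and 0.12.

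Each member was set against 12162 genes listed by symbol, ranked by r of log2 CPM over the 16 samples. These r values are descriptions, since 2 samples come from each pig and all share depth and tissue makeup, and the median r over all ranked genes was between 0.00 and 0.04 for each member. CXCL9 was most like PTPRC (r = 0.949), the T cell receptor component CD3D (0.944) and the cytotoxic granule protease GZMA (0.939). Over the 14 samples without pig 5 these were 0.865, 0.851 and 0.746. CXCL11 was most like PTPN7 (0.926), a phosphatase of blood cells, and the swine class II antigen presentation genes SLA-DQB1 (0.921) and SLA-DOA (0.902), which without pig 5 were 0.795, 0.774 and 0.831.

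Among the genes most like CXCL10 were TAP1 (r = 0.980), which carries peptides for class I presentation, and NLRC5 (0.964), an activator of class I genes. IDO1 was most like CD40 (0.918), the costimulatory receptor of antigen-presenting cells, TNFSF10 (0.917), which encodes the death ligand TRAIL, and ERAP1 (0.917), a peptidase that trims peptides for class I. CXCR3 was most like NIPA1 (0.892), QTRT2 (0.888) and TMEM263 (0.880), and these were 0.784, 0.772 and 0.751 without pig 5. Its r with CD3E, a component of the T cell receptor complex, was 0.512, which put CD3E at rank 1352, whereas that of CXCL9 with CD3E was 0.922. Without pig 5 these were -0.25 for CXCR3 and 0.752 for CXCL9. For the genes named beside CXCL10 and IDO1, r without pig 5 was 0.918 to 0.980.

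**Figure D5:**
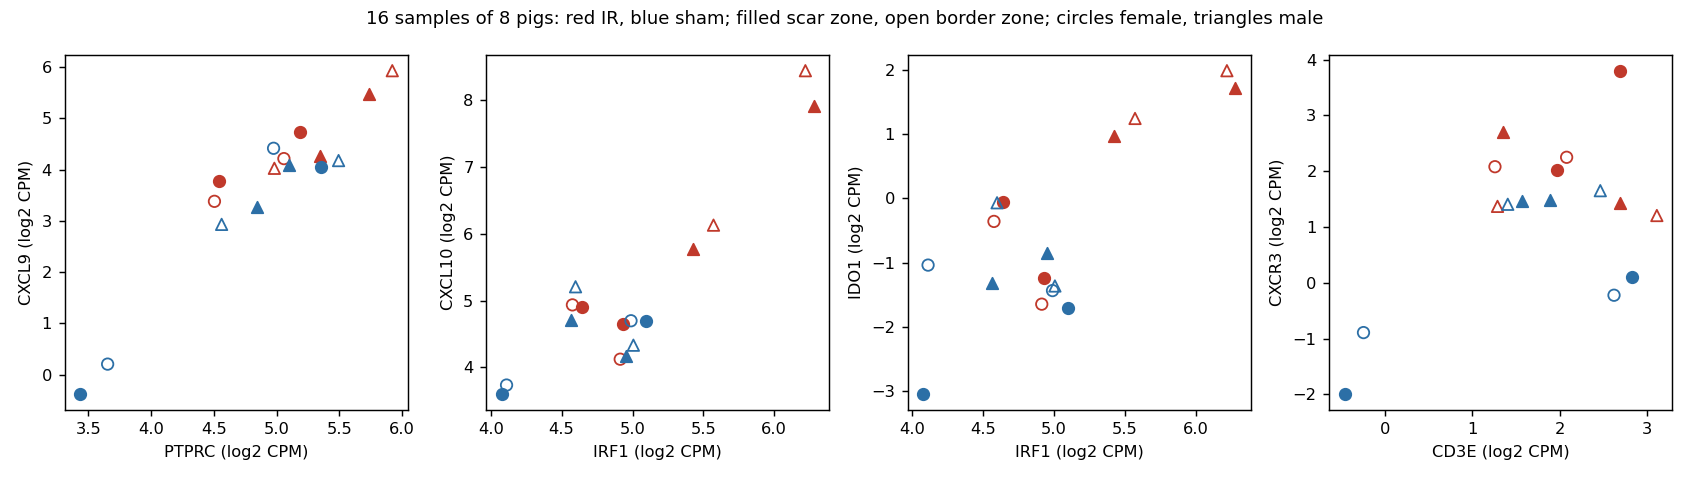
Log2 CPM of CXCL9 against PTPRC, CXCL10 and IDO1 against IRF1, and CXCR3 against CD3E in 16 samples of 8 pigs. Red is IR, blue sham, filled symbols are scar zone, open symbols border zone, circles female and triangles male. Samples of pig 5 are the farthest left in the PTPRC and CD3E panels. Over the 16 samples r with IRF1 was 0.895 for CXCL10 (rank 60 of 12162 genes) and 0.783 for IDO1 (rank 201).

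IFNG, which encodes interferon gamma itself, had 0 to 22 estimated counts per sample and did not pass the low-count filter. It was at 1 to 13 counts in IR scar, 1 to 11 in sham scar, 1 to 22 in IR border and 0 to 9 in sham border samples, so the groups overlapped in both zones, and a difference between them was not tested. IRF1, an interferon-induced transcription factor, had a log2 fold change of 0.74 in both zones, with an edgeR p of 0.0635 in scar and 0.0497 in border samples, below a fold change of 2.

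Among other known interferon gamma targets, 18 of the 28 listed were tested. In the scar zone 4 were higher at the unadjusted p with a fold change of at least 2, CD274 (1.85), which encodes the checkpoint ligand PD-L1, the transcription factor BATF2 (1.75), TAP1 (1.27) and the immunoproteasome subunit PSMB9 (1.17), all log2 fold changes, and the list median was 0.69. In the border zone 3 were higher, BATF2 (2.02), TAP1 (1.34) and NLRC5 (1.05), with a median of 0.63. None was lower in either zone, and none passed the adjusted threshold in edgeR. Without pig 5 only CD274 was higher in the scar zone and 0 of these genes in the border zone, against 1.87% and 0.331% of all genes tested, and without pig 14 the counts were 6 and 5 (background 4.80% and 0.906%).

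Around IDO1, 10 of 15 listed genes of tryptophan and kynurenine metabolism were tested. In the scar zone 2 were higher, the amino acid transporter SLC7A5 (log2 fold change 1.26) and HAAO (1.00), an enzyme further down the pathway, with a list median of 0.40, and in the border zone 0 were higher (median 0.07). Around CXCR3 and its ligands, 10 of 12 listed binding or processing proteins were tested. One was higher in the scar zone, ACKR1 (2.13), an atypical chemokine receptor of venules and red cells, and 0 in the border zone, with list medians of -0.01 and -0.15. Without pig 5 the scar zone counts were 1 (HAAO) for the tryptophan list and 0 for the receptor list, and without pig 14 they were 3 and 2. The unadjusted p was used for these counts, and the background was as given above for each zone.

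Of T and NK cell markers, 0 of 25 tested in scar and 0 of 24 in border samples passed the unadjusted threshold (medians 0.28 and 0.43), and 28 of 29 were listed. For this and the following marker counts, the share of all genes higher at that threshold was 2.74% in scar and 0.517% in border samples. Their summed level was 50.02 to 106 TPM in IR scar, 20.0 to 75.7 in sham scar, 50.1 to 102 in IR border and 22.2 to 75.8 in sham border samples, and no listed marker was at 0 in all pigs of a group. Macrophage and dendritic cell markers were higher for 4 of 17 genes tested in the scar zone, CD209 (2.96), LYZ (2.78), MARCO (1.95) and CD86 (1.09), and for 0 of 17 in the border zone. Their sum was 55.6, 305, 216 and 57.0 TPM in the scar zone of IR pigs 2, 9, 11 and 14, 39.0 to 82.1 in sham scar, 52.1 to 85.9 in IR border and 38.8 to 78.3 in sham border samples. Scar zone sums were thus high in pigs 9 and 11, the pigs with the most CXCL10 and IDO1, while border zone sums of these pigs were 85.9 and 73.0 TPM. The fibroblast sum was likewise high in pigs 9 and 11 in the scar zone (10037 and 10247 TPM) and not in the border zone (1812 and 2188 TPM), where CXCL10 and IDO1 of these pigs stayed high. Of fibroblast markers, 3 of 10 were higher in scar samples, COL1A1 (1.96), POSTN (1.85) and COL1A2 (1.59), and 0 of 10 in border samples, and of endothelial markers 0 of 10 were higher in either zone. Without pig 5, 1 macrophage marker (MARCO) and 2 fibroblast markers (COL1A1 and COL1A2) were higher in scar samples, against 1.87% of all genes. Without pig 14 the scar zone counts were 6 and 6 (background 4.80%), and 3 macrophage markers were higher in border samples (background 0.906%). The part of these cell types in the result was not tested.

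Levels were also expressed relative to PTPRC, which had a log2 fold change of 0.43 in the scar and 0.39 in the border zone, with an edgeR p of 0.284 and 0.316. CXCL11 minus PTPRC on the log2 CPM scale was -5.29, -5.60, -5.34 and -4.66 in the scar zone of IR pigs 2, 9, 11 and 14 and -5.84, -6.47, -6.06 and -6.33 in sham pigs 4, 5, 12 and 13. Here the groups did not overlap, and the share of all genes for which this held relative to PTPRC was not determined. The difference was 0.95 (exact permutation p = 0.0286, the smallest these numbers allow, adjusted over 12 tests 0.229). It was 0.86 without pig 5 and 0.77 without pig 14, each with an exact permutation p of 0.0571, so leaving out either pig ended the call. In both cases every remaining IR pig still lay above all remaining sham pigs. For the other members relative to PTPRC the scar zone difference was 1.29 for CXCL9 and 1.55 for IDO1 (exact permutation p = 0.0571 each), 1.70 for CXCR3 (exact permutation p = 0.0857) and 0.99 for CXCL10 (exact permutation p = 0.143). CXCR3 relative to CD3E differed by 1.503 (exact permutation p = 0.114), with 3 of 4 IR pigs above all sham pigs. Border zone differences were 0.72 to 1.01, with exact permutation p from 0.171 to 0.371. Pig 5 was also far from the other sham pigs for CXCL9 relative to PTPRC, at -3.81 in the scar zone against -1.58 to -1.01. Without it the CXCL9 difference was 0.66 in the scar zone (exact permutation p = 0.0857) and 0.44 in the border zone (exact permutation p = 0.343), and that of CXCL11 in the border zone was 0.26 (exact permutation p = 0.343). Scar zone differences of CXCR3 were 1.37 relative to PTPRC and 1.39 relative to CD3E without pig 5, and 1.26 and 1.24 without pig 14. An exact permutation p of 0.0286 was reached in the scar zone by IDO1 relative to PTPRC without pig 2 (1.86) and by CXCL9 without pig 12 (1.59), and in the border zone by CXCL9 without pig 4 (1.40).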

How the data were processed

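Polyadenylated RNA of 16 left ventricular samples was sequenced as stranded paired reads. The authors deposited estimated counts per gene, which kallisto gives as sums of partial read assignments, not scaled for depth. A second deposited table holds TPM, which the authors obtained from the same estimates by scaling for transcript length and depth. The submitters' processing notes name Trimmomatic 0.33, HISAT2 2.0.5 and kallisto 0.43.1, with an index of Ensembl pig cDNA. The genome build is not given in the sources used here, so no coordinates are printed. Reads shared by similar transcripts were divided by kallisto.

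Estimated counts were rounded to whole numbers. In R 4.3.3, edgeR 4.0.16 was run with TMM scaling, filterByExpr (minimum count 10, minimum total 15), the quasi-likelihood test and Benjamini-Hochberg adjustment over all genes tested. Calls needed a fold change of at least 2 with an adjusted p no higher than 0.05, and the unadjusted p is given beside it since the study's methods name both. Exact permutation tests and correlations were run in Python 3.11.15. The tests of IR against sham were checked on simulated scar zone counts, with the same dispersion for all genes and large changes in genes of higher counts. Permutation tests were checked on random values. Changes in low-count genes, the interaction, the block and the factor of unwanted variation were not simulated.

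The replicate number is the pig, so both zones of an animal are paired. Over 14311 genes, deviations from the group means correlated at 0.353 to 0.690 between the zones of a pig. Zones were compared with and without the pig as a block.

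The members and gene lists were chosen with earlier results of these data known. Named genes are the members, the 3 genes most like each, at most 4 genes per list and zone past the unadjusted threshold, IFNG, IRF1, PTPRC and CD3E, and those a sentence on a marker needs. Part of what this rule takes is not reported here. DDX3Y and KDM5D were named with their values known. Alternatives were DESeq2 1.42.0, upper-quartile scaling, no filter, 1 fit of all 16 samples, sex as a covariate, 1 factor of unwanted variation from 5000 genes, limma 3.58.1 on log2(TPM + 1) and log2(TPM + 0.1), CPM without TMM, group means subtracted, and each pig left out. The 5000 genes for the factor were those with the highest p for the same contrast in the same libraries. The likelihood-ratio test with that factor, the unadjusted counts under the alternatives, the block with 1 pig left out, and the list counts, sex differences and 14-sample r without pig 5 or 14, were chosen after seeing the data.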

Additional observations from a re-analysis of the deposited data

How the results depend on the processing

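Direction was kept by all 5 members in each zone's comparison of IR with sham under every alternative run. In the scar zone, 0 genes were called by edgeR at the adjusted p, against 470 at the unadjusted p (384 higher, 86 lower), 52 with DESeq2 (37 higher, 15 lower), 3 and 1 with limma on log2(TPM + 1) and log2(TPM + 0.1), and 146 with the likelihood-ratio test and 1 factor of unwanted variation. Of the members, 4 passed at the unadjusted p (2 to 4 with 1 pig left out) and 1, IDO1, with the likelihood-ratio test. In the border zone the 0 genes became 109 at the unadjusted p, 2 with DESeq2, 1 with 1 factor of unwanted variation and 5 with the likelihood-ratio test, and 2 members passed at the unadjusted p (0 to 3 with 1 pig left out). Limma tested 3 members, since CXCL11 and IDO1 were below its filter, and shifted the median log2 fold change of all genes in the scar zone to 0.15 and 0.17. CXCL9 passed the unadjusted p there under limma, with a p of 0.0346 and 0.0481, and CXCL10 in the border zone did not, with a limma p of 0.0849 and 0.0850.

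The test of the IR effect between zones called 196 genes at the unadjusted p, scar against border zone 250 in IR pigs (4 with DESeq2 at the adjusted p) and 14 in sham pigs (1 with DESeq2). With the replicate block, where pairing holds by animal, these unadjusted counts were 217, 233 and 28, the counts at the adjusted p stayed at 0, and the block changed no call of a member, the CXCR3 value in IR pigs given above (0.81) being past the unadjusted p but below a fold change of 2. The block with 1 pig left out, combinations chosen after the data were seen, called 0 genes at the adjusted p for the difference between zones. It called 0 to 1 in IR pigs and 0 to 4 in sham pigs, 0 of them members. CXCL9 in IR pigs had a log2 fold change of -0.02 with all pigs and no block. Without pig 9 its value was 0.401 without the block and 0.390 (edgeR p of 0.0168) with the block.

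By exact permutation, 0 members reached 0.05, and 1, CXCR3 in the scar zone, did on log2(TPM + 0.1) and on CPM without TMM (0 to 2 with 1 pig left out). For scar minus border zone 0 did, and 0 to 1 with 1 pig left out. Relative to PTPRC or CD3E, 1 member did, 2 did on log2(TPM + 0.1), and 0 to 2 with 1 pig left out. Relations past the adjusted threshold numbered 2 in each zone and, with 1 pig left out, 0 to 5 for scar and 0 to 3 for border samples. In the border zone, r of CXCR3 turned negative with group means subtracted, at -0.0725 with CXCL10 and -0.144 with IDO1. With 1 pig left out, and lowest without pig 5, it ranged from -0.272 to 0.716 with CXCL9, from -0.0574 to 0.40 with CXCL10 and from -0.244 to 0.743 with CXCL11. With IDO1 it ranged from 0.0588 (without pig 4) to 0.412. The causes were not tested. Depth limits CXCL11, IDO1 and IFNG most, at 0 to 56, 1.09 to 167 and 0 to 22 counts.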
